A study of Mus musculus with 12 samples.

Results

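The cell cycle and proliferation genes examined here are 43 genes of the mouse liver, chosen by name as cyclins, cyclin-dependent kinases (CDKs), CDK inhibitors, E2F and FOXM1 transcription factors, DNA replication and nucleotide supply genes, mitotic genes and the proliferation markers Mki67 and Top2a. All 43 were found among the 24537 genes of the deposited table, by the symbol that opens each row. The mice were 12 male C57Bl/6J animals, 6 weeks old at the start, from which liver RNA was sequenced. Con mice ate ad libitum, and CR mice received 30% less food than Con mice. Groups of 3 mice were sampled at day 25 (Con7, Con8 and Con9, and CR7, CR8 and CR9) and at day 30 (Con10, Con11 and Con12, and CR10, CR11 and CR12). All 12 shared the same strain and individual housing, and by the study's methods the CR mice were given their food once a day and the mice of the time course drank heavy water for the last days before tissue was taken. The comparison asks whether CR was accompanied by a change in these transcripts at each day and whether that change differed between the days.

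A cell enters the cycle when D-type cyclins with CDK4, and then cyclin E with CDK2, phosphorylate the retinoblastoma protein and release E2F factors, which switch on genes for DNA replication. Cyclin A, cyclin B and CDK1 then carry the cell through S phase and mitosis, with the Aurora and Polo kinases and the spindle checkpoint. CDK inhibitors such as p21, the product of Cdkn1a, hold the cell back. Adult hepatocytes are mostly quiescent and re-enter the cycle after injury or loss of tissue, so that much of the mitotic RNA of an unperturbed liver is scarce. A bulk sample cannot tell fewer cycling cells from less RNA per cell.

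Levels are given as FPKM, which are exon reads scaled by the length of the exons and by the reads of the library, so that genes of unequal length can be compared. The libraries held 15748700 to 23345550 reads, recovered from the steps of the low FPKM values. The 8 hepatocyte markers summed to 39872 to 68386 FPKM in each library, as the tissue label calls for. The filter on low values asked for 1 FPKM or more in 3 or more libraries, and 18 of the 43 members passed it while 25 stayed below. A filter of 10 or more reads in 3 or more libraries let 31 members pass, which are the 18 and a further 13, and 12 members lay below both limits. A total of 33 members had a read in every library. No p-value measures more than the spread between the 3 mice of a group.

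**Figure D1:**
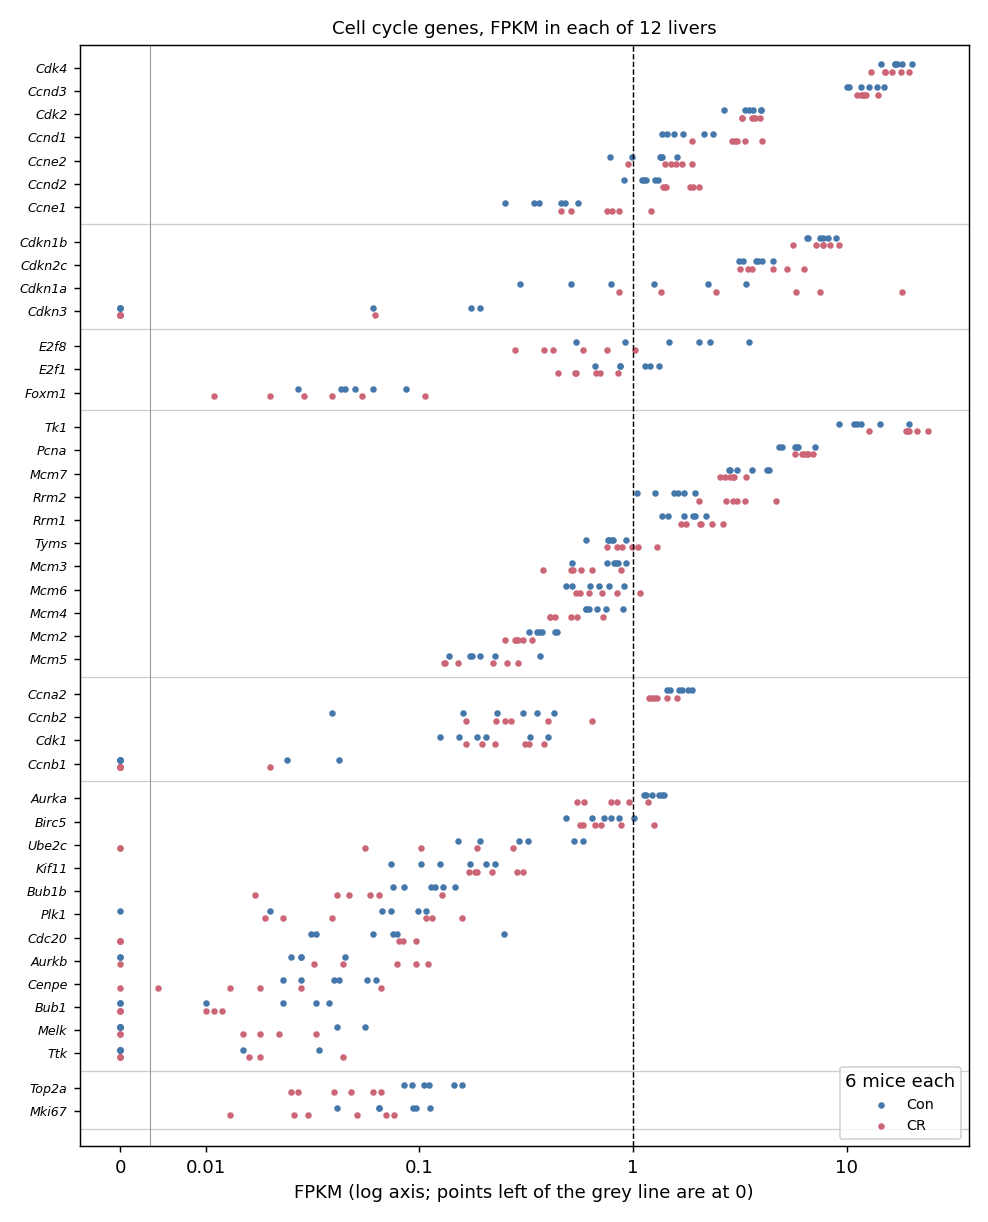
FPKM of the 43 members in each of the 12 livers on a log axis, grouped by role, with Con mice in blue and CR mice in red and the filter of 1 FPKM as a dashed line. The cyclin D, CDK and nucleotide supply genes lie mostly right of the line, and 11 of the 12 genes of the mitotic kinase group are below the filter.

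Fewer members passed the FPKM filter among the genes of later phases of the cycle. The count was 6 of 7 among D-type cyclins, E-type cyclins and their kinases, 3 of 4 among CDK inhibitors and the CDK phosphatase Cdkn3, 2 of 3 among E2F and FOXM1 factors and 5 of 11 among replication and nucleotide supply genes. It was 1 of 4 among mitotic cyclins and Cdk1, 1 of 12 among mitotic kinases, checkpoint and spindle genes, and 0 of 2 among proliferation markers. Cdk4 had the highest median over the 12 libraries, at 16.8 FPKM, next to Tk1 at 16.6 FPKM. Ccnb1, which encodes cyclin B1, had 4 reads in all 12 libraries together and none in 9 of them.

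Promoters of mitotic genes often carry the cell cycle homology region (CHR) and CCAAT boxes, and promoters of replication genes often carry E2F sites. The 250 bases before the RefSeq start site (GRCm38.p6, the build of mm10) were searched on both strands. The CHR was read as TTTGAA or, in its other common form, as TTCGAA. The CCAAT box was read as these 5 letters. The E2F site was read as TTCGCGC or, in its other common form, as TTGGCGC. An E2F match TTGGCGC shares 4 letters with a CCAAT box read as ATTGG where an A precedes it. Of the 43 members, 36 had a promoter entry. The CHR letters were in 12 of the 36 (33.3%) and in 17.1% of all 32851 promoters of the same length, CCAAT in 27 (75.0%) and in 33.8%, and an E2F match in 6 (16.7%) and in 3.14%. CHR and CCAAT occurred together in 33.3% of the members and in 6.02% of all promoters. A match of letters is a description and does not show binding.

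Of the transcripts described below, the promoters of Top2a, Mki67, Aurka, E2f8 and Rrm2 are printed as examples of 4 genes with lower RNA under CR and 1 with higher RNA. These 5 were chosen after their values were seen, and their motifs do not stand for those of all members that moved the same way. Each is the 150 bases before the RefSeq start, on the strand of the gene, with matches of any of the motifs in capitals. Top2a lies on the minus strand at chr11:99024190-99024339, Mki67 on the minus strand at chr7:135716380-135716529, Aurka on the minus strand at chr2:172370571-172370720, E2f8 on the minus strand at chr7:48881597-48881746 and Rrm2 on the plus strand at chr12:24708104-24708253. The RefSeq start of E2f8 is 555 bases from the start of the transcript in the deposited table.
Top2a: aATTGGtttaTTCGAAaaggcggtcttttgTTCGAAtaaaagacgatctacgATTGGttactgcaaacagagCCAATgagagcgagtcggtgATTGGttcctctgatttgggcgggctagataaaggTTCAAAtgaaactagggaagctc
Mki67: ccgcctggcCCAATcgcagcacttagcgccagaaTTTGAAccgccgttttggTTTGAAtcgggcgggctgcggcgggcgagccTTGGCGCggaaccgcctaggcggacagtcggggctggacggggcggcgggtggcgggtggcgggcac
Aurka: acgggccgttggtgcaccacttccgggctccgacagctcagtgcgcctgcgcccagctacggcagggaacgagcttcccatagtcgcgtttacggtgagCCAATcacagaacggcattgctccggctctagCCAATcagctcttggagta
E2f8: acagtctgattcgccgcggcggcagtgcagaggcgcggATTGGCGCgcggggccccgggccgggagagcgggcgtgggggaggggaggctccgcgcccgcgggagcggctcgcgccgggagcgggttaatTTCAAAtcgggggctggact
Rrm2: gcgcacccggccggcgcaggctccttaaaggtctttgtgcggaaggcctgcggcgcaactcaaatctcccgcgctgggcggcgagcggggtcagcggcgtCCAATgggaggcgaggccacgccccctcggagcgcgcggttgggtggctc

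Over the full 250 bases, Top2a had 4 CHR and 6 CCAAT matches, and Mki67 had 2 CHR, 3 CCAAT and 1 E2F matches. Aurka had 2 CCAAT matches, E2f8 had 1 match of each motif, and Rrm2 had 1 CCAAT match. Cdkn1a, Ccne1, Tk1 and E2f1 had no match of these letters in that window. The same motifs were also in promoters of members that were not lower. Of the 12 members with CHR and CCAAT matches, 8 were tested on reads. Of all genes tested on reads, 38.7% passed over both days, 13.4% higher and 25.3% lower. Over both days 5 of the 8 members had a negative log2 fold change, of which E2f8, Mki67 and Top2a passed and Mcm2 and Mcm7 did not. The other 3 had a positive one. These 3 were Cdk1 (2 CHR, 3 CCAAT and 2 E2F matches, log2 fold change 0.22 ± 0.31, SE), Ccnb2 (1 CHR and 3 CCAAT, 0.50 ± 0.44) and Kif11 (1 CHR and 1 CCAAT, 0.59 ± 0.27), none of which passed.

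Under CR, few members moved by a factor of 2 on the log2(FPKM + 1) scale. With limma on log2(FPKM + 1), a Benjamini-Hochberg adjusted p under 0.1 over all 10593 genes and a log2 fold change of 1 or more in either direction, CR and Con mice differed at day 25 in 1 of the 18 members, Cdkn1a, which rose (1.48% of all genes tested passed). At day 30 the count was 0 of 18 (2.21% of all genes), with 7 members at an unadjusted p under 0.05 and none of those past the fold. Over both days, with day as a covariate, it was again 1 of 18, Cdkn1a (1.66% of all genes). With voom on the recovered reads and the same limits, 2, 5 and 5 of 31 members passed at day 25, at day 30 and over both days, beside 3.35%, 5.1% and 4.22% of 12972 genes.

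Without a limit on the fold, 4 of the 18 members passed at day 25 (14.9% of all genes), 6 at day 30 (24.7%) and 9 over both days (40.6%). At day 25, 4 rose and none fell, beside 5.6% of all genes higher and 9.34% lower. At day 30, 3 rose and 3 fell, beside 8.33% and 16.4%. Over both days, 5 rose and 4 fell, beside 14.5% and 26.1%. The median log2 fold change of the 18 members was 0.05 at day 25, 0.08 at day 30 and 0.08 over both days, beside −0.04, −0.07 and −0.05 for all genes tested. When all genes were tested with no filter, Ccnd1, Ccnd2 and Rrm2 did not pass at day 25 and Ccnd2 and E2f8 did not at day 30, with the same fold changes.

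On recovered reads, 5 of 31 members passed at day 25 (13.3% of all genes), of which 4 rose and 1 fell, beside 4.75% of all genes higher and 8.52% lower. The count was 9 at day 30 (24.3%), with 4 up and 5 down beside 8.09% and 16.2%, and 14 over both days (38.7%), with 6 up and 8 down beside 13.4% and 25.3%.

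The 3 CR mice lay wholly above or wholly below the 3 Con mice in 6 of the 18 members at day 25 (28.2% of all genes) and in 8 at day 30 (36.4%). Over both days, the 6 CR mice lay wholly above the 6 Con mice for Ccnd2 and Rrm2 and wholly below for none of the 18, beside 3.82% of all genes higher and 8.7% lower (12.5% in all). Among the 25 members under the filter, Top2a was the 1 whose 6 CR mice all lay below its 6 Con mice. The share of all genes under the filter that lay apart in this way was not computed, so this has no background beside it.

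**Figure D2:**
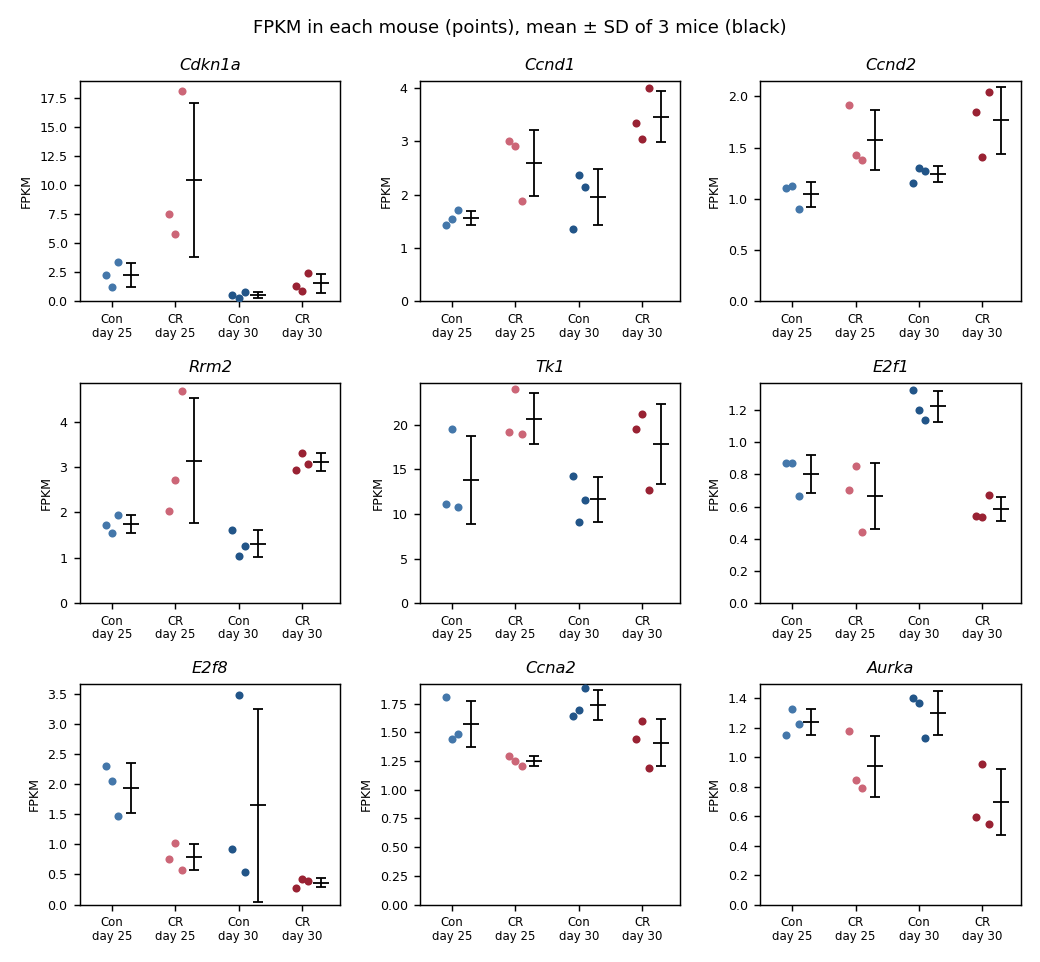
FPKM of 9 members in each mouse (colored points), with the mean ± SD of the 3 mice of each group in black. Cdkn1a was highest in the CR mice of day 25, Ccnd2 and Rrm2 were higher in every CR mouse than in every Con mouse, and the single high point of E2f8 at day 30 is Con11.

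Cdkn1a (mm10 chr17:29093769-29100722) encodes p21, the inhibitor that p53, stress and fasting signals can induce. At day 25 the Con mice had 2.25, 1.26 and 3.36 FPKM and the CR mice 7.52, 5.79 and 18.1 FPKM. At day 30 the Con mice had 0.512, 0.295 and 0.790 FPKM and the CR mice 1.35, 0.862 and 2.45 FPKM. The groups did not overlap at either day, and CR9 was the highest of all 12. On the log2(FPKM + 1) scale, the change under CR was 1.70 ± 0.35 (SE) at day 25 (adjusted p = 0.0113), 0.70 ± 0.35 at day 30 (adjusted p = 0.192) and 1.20 ± 0.28 over both days (adjusted p = 0.00586). On recovered reads, which have no pseudocount of 1, it was 2.15 at day 25 (adjusted p = 0.00958), 1.52 at day 30 (adjusted p = 0.173) and 1.99 over both days (adjusted p = 0.00123), a 3.97-fold difference. Without CR9 the value was 1.26 at day 25 and 0.95 over both days, under the limit of 1 though still past the adjusted p, and the 0.70 at day 30 then passed the adjusted p. With the replicate block at day 25, which takes same-numbered mice of that day as pairs, the adjusted p at day 30 was 0.0484 on FPKM and 0.0298 on reads.

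Cdkn1a was also lower at day 30 than at day 25 in CR mice. The log2 fold change of day 30 against day 25 was −2.06 (adjusted p = 0.0677), and it was the 1 member of 18 to pass (0.142% of all genes). The call was lost without CR7, CR9, CR10 or CR11, with values of −2.20 to −1.62. In Con mice the same difference was −1.06 (adjusted p = 0.556). There 0 of 18 members and 0 of 10593 genes passed with limma, and also 0 with voom on reads. The 2 members Cdkn1a and E2f1 had an unadjusted limma p under 0.05. Voom was also fitted to reads of all genes with at least 1 read in at least 1 library. On that scale, without a pseudocount, the difference of Cdkn1a was −2.68 in CR mice (adjusted p = 0.0738) and −2.05 in Con mice (adjusted p = 0.572). The change of the CR effect between days had a 95% interval of −2.08 to 0.08 on the log2(FPKM + 1) scale and was −0.63 on reads, and it passed no threshold (adjusted p above 0.99 in both).

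Of the other CDK inhibitors among the members, Cdkn1b and Cdkn2c did not pass. Cdkn1b, which encodes p27, lay between 5.58 and 9.19 FPKM and had a log2 fold change of 0.00 over both days, with a 95% interval of −0.19 to 0.20. Cdkn2c, which encodes p18, an inhibitor of CDK4 and CDK6, lay between 3.12 and 6.30 FPKM. Cdkn3, a phosphatase that acts on CDKs, had 7 reads in the 6 Con mice together and 1 in the 6 CR mice.

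Ccnd1 and Ccnd2, which encode the cyclins that bring growth signals to CDK4, rose under CR, and Ccnd3, the most abundant of the D-type cyclins here, did not pass. Ccnd1 (mm10 chr7:144929931-144939925) had 1.43, 1.55 and 1.71 FPKM in Con mice and 3.00, 2.92 and 1.89 FPKM in CR mice at day 25. The values at day 30 were 1.37, 2.36 and 2.14 FPKM in Con mice and 3.35, 3.05 and 4.002 FPKM in CR mice. The groups lay apart within each day, while CR9 of day 25 lay below the 2 higher Con mice of day 30. CR mice differed from Con mice by a log2 fold change of FPKM + 1 of 0.48 ± 0.15 (SE) at day 25 (adjusted p = 0.0730), 0.61 ± 0.15 at day 30 (adjusted p = 0.0198) and 0.54 ± 0.11 over both days (adjusted p = 0.00213), and on reads over both days it was 0.79, a 1.72-fold difference. The call at day 25 was lost without Con7, Con8, Con9, CR7 or CR8, with values of 0.39 to 0.52, and those at day 30 and over both days held without each mouse.

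Ccnd2 (mm10 chr6:127125709-127151048) had 1.10, 1.12 and 0.906 FPKM in Con mice and 1.92, 1.43 and 1.38 FPKM in CR mice at day 25. By day 30 it had 1.15, 1.30 and 1.27 FPKM in Con mice and 1.85, 1.41 and 2.04 FPKM in CR mice. Every CR mouse was above every Con mouse. The log2 fold change of FPKM + 1 was 0.33 ± 0.11 (SE) at day 25 (adjusted p = 0.0948), 0.30 ± 0.11 at day 30 (adjusted p = 0.0954) and 0.31 ± 0.08 over both days (adjusted p = 0.00876). Both single-day calls sat at the threshold. That of day 25 was lost without any 1 of 10 mice, all except CR11 and CR12 (0.24 to 0.38), and that of day 30 without any 1 of 10 mice, all except CR7 and CR11 (0.22 to 0.32). The call over both days held without each mouse.

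Ccnd3 lay between 9.96 and 15.0 FPKM, with a log2 fold change over both days of 0.00 and a 95% interval of −0.20 to 0.20. It made up 80.1% to 84.8% of the summed FPKM of the D-type cyclins in Con mice and 70.2% to 78.6% in CR mice at day 25, and 73.1% to 83.5% and 64.8% to 72.7% at day 30. The ranges of Con and CR mice did not overlap at either day, and the share was computed after the values of its genes were seen. Cdk4, the kinase partner, lay between 12.9 and 20.1 FPKM, and its log2 fold change over both days was −0.09, with an interval of −0.31 to 0.12.

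The E-type cyclins, which bind CDK2 at the start of S phase, had low levels. Ccne1 (mm10 chr7:38097984-38107490) stayed under the FPKM filter, with 0.252, 0.364 and 0.458 FPKM in Con mice and 0.510, 1.21 and 0.461 FPKM in CR mice at day 25. At day 30 it had 0.478, 0.555 and 0.343 FPKM in Con mice and 0.751, 0.794 and 0.860 FPKM in CR mice. CR lay above Con within each day, though at day 25 CR9 and Con9 almost met. On reads, Ccne1 rose over both days by a log2 fold change of 0.83 ± 0.25 (SE, adjusted p = 0.0198), with 0.84 at day 25 (adjusted p = 0.209) and 0.82 at day 30 (adjusted p = 0.111). The value at day 30 passed without CR8, and with the replicate block at day 25 (adjusted p = 0.0804). Ccne2 lay between 0.777 and 1.88 FPKM and did not pass, with a log2 fold change of FPKM + 1 over both days of 0.16 (adjusted p = 0.158), and with the block its adjusted p was 0.0660. Cdk2 lay between 2.65 and 3.96 FPKM and did not pass.

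E2F1 activates S phase genes, while E2F8 is an atypical E2F that represses them and is known for its part in the polyploidy of hepatocytes. Both fell. E2f1 (mm10 chr2:154559400-154569426) had 0.870, 0.871 and 0.663 FPKM in Con mice and 0.703, 0.851 and 0.444 FPKM in CR mice at day 25. The values at day 30 were 1.33, 1.204 and 1.14 FPKM in Con mice and 0.543, 0.536 and 0.670 FPKM in CR mice. The groups overlapped at day 25 and lay apart at day 30. On the log2(FPKM + 1) scale, the change under CR was −0.12 ± 0.11 (SE) at day 25 (adjusted p = 0.558), −0.49 ± 0.11 at day 30 (adjusted p = 0.0122) and −0.30 ± 0.09 over both days (adjusted p = 0.0233). E2f1 passed the FPKM filter only through Con10, Con11 and Con12, the group in which it was highest, so these tests depend on that choice. On reads, with 24 to 73 in every library, E2f1 at day 30 was 0.481-fold of Con (voom, adjusted p = 0.00632). Over both days the adjusted p on reads was 0.00765. The change of the CR effect between days was −0.37, which did not pass (adjusted p above 0.99). It was the 1 member of 18 with an unadjusted p under 0.05 for that difference, and no member passed (0 of 18 with limma and 0 of 31 with voom, beside 0.00944% and 0% of all genes).

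E2f8 (mm10 chr7:48866429-48881041) had 2.29, 2.04 and 1.47 FPKM in Con mice and 0.757, 1.02 and 0.582 FPKM in CR mice at day 25. By day 30 it had 0.916, 3.48 and 0.543 FPKM in Con mice and 0.280, 0.420 and 0.385 FPKM in CR mice. CR lay below Con within each day, with Con11 far above the other 2 Con mice. Of the CR mice, CR8 alone reached the 1 FPKM of the filter. CR mice differed from Con mice by a log2 fold change of FPKM + 1 of −0.71 ± 0.29 (SE) at day 25 (adjusted p = 0.154), −0.80 ± 0.29 at day 30 (adjusted p = 0.0836) and −0.76 ± 0.20 over both days (adjusted p = 0.0131). On reads over both days it was −1.50, a level 0.353-fold of Con (adjusted p = 0.00756). Without Con11 the value at day 30 was −0.34 and did not pass. That call was also lost without CR7, CR10, CR11 or CR12 (−0.83 to −0.75), while −0.71 at day 25 passed without Con11 or Con12. The call over both days held without each mouse, at −0.89 to −0.55. Foxm1, which drives genes of G2 and mitosis, had 27 reads in the Con mice and 23 in the CR mice, from 117997450 and 123176650 reads in all.

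Of the replication and nucleotide supply genes, Rrm2 and Tk1 rose, and Mcm3 and Mcm4 fell on reads. Rrm2 (mm10 chr12:24708254-24714146), the regulated subunit of ribonucleotide reductase, whose promoter above holds 1 CCAAT box, rose. It had 1.73, 1.56 and 1.94 FPKM in Con mice and 2.02, 2.72 and 4.68 FPKM in CR mice at day 25. At day 30 it had 1.62, 1.04 and 1.27 FPKM in Con mice and 2.93, 3.32 and 3.06 FPKM in CR mice. Every CR mouse was above every Con mouse. The log2 fold change of FPKM + 1 was 0.55 ± 0.18 (SE) at day 25 (adjusted p = 0.0835), 0.84 ± 0.18 at day 30 (adjusted p = 0.00954) and 0.69 ± 0.13 over both days (adjusted p = 0.00173), and on reads over both days Rrm2 was 2.02-fold of Con. The call at day 25 was lost without any 1 of 8 mice, all except CR7, Con10, Con11 and CR10 (0.29 to 0.60, lowest without CR9), and the others held without each mouse.

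Tk1 (mm10 chr11:117815519-117826014), the thymidine kinase of the cytosol, had 11.1, 19.5 and 10.8 FPKM in Con mice and 19.2, 24.0 and 18.9 FPKM in CR mice at day 25. The values at day 30 were 14.2, 9.14 and 11.6 FPKM in Con mice and 19.6, 21.2 and 12.7 FPKM in CR mice. Con8 and CR12 made the groups overlap. On the log2(FPKM + 1) scale, the change under CR was 0.59 ± 0.23 (SE) at day 25 (adjusted p = 0.138), 0.56 ± 0.23 at day 30 (adjusted p = 0.120) and 0.58 ± 0.16 over both days (adjusted p = 0.0155), the last holding without each mouse. Without Con8, the value of day 25 was 0.85 and that of day 30 stayed 0.56, and both passed. Without CR12, that of day 30 was 0.78 and passed. With the replicate block at day 25, Tk1 passed at day 25 (adjusted p = 0.0839) and at day 30 (adjusted p = 0.0712).

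Rrm1, the large subunit of the reductase, lay between 1.37 and 2.64 FPKM, Pcna, the sliding clamp, between 4.79 and 7.12 FPKM, and Tyms, the thymidylate synthase, between 0.603 and 1.29 FPKM. None of these passed at either day or over both days. Mcm2 to Mcm7 encode the hexameric helicase that licenses origins, and 5 of the 6 had a negative log2 fold change on reads over both days. Only Mcm3 (−0.43 ± 0.18, SE, adjusted p = 0.0807) and Mcm4 (−0.45 ± 0.17, SE, adjusted p = 0.0597) passed, with voom on reads over both days. Mcm3 had 43, 45 and 25 reads in Con mice and 31, 17 and 33 in CR mice at day 25, and 49, 46 and 60 and 35, 49 and 43 at day 30. Mcm4 had 49, 41 and 41 and 31, 23 and 37 reads at day 25, and 44, 46 and 72 and 36, 38 and 60 at day 30. The call of Mcm3 was lost without any 1 of 8 mice, all except Con9, CR9, Con11 and CR11 (−0.44 to −0.35), and that of Mcm4 without Con7, CR7, Con12 or CR10 (−0.41 to −0.37). With median-ratio scaling of the reads, Mcm3 (−0.35) and Mcm4 (−0.37) did not pass. Mcm2 (0.252 to 0.442 FPKM), Mcm5 (0.131 to 0.365), Mcm6 (0.483 to 1.08) and Mcm7 (2.54 to 4.32) did not pass.

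**Figure D3:**
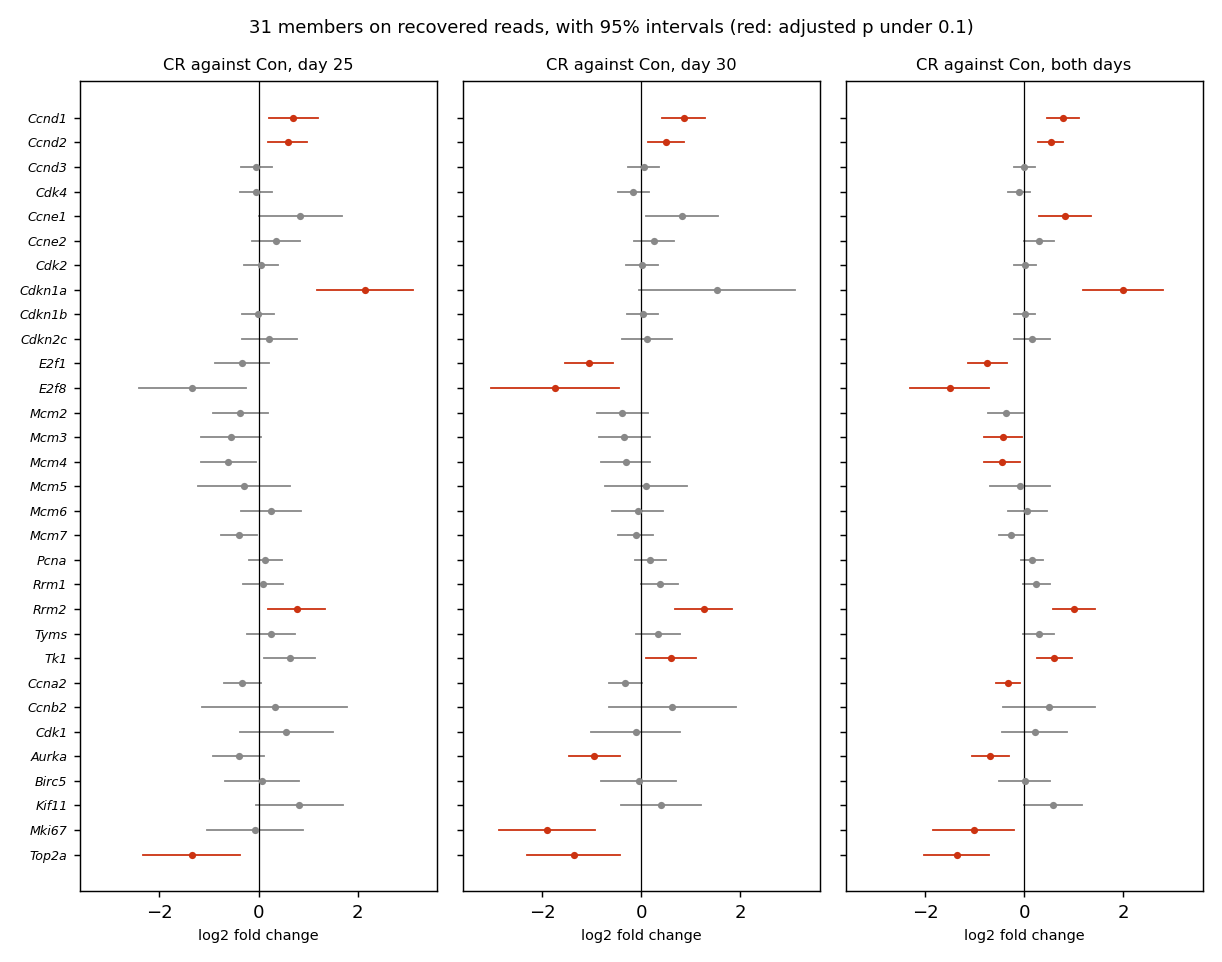
Log2 fold change of CR against Con on recovered reads for the 31 members with at least 10 reads in at least 3 libraries, with 95% intervals, at day 25, at day 30 and over both days, red where the adjusted p is under 0.1. The members with higher RNA in red over both days are Ccnd1, Ccnd2, Ccne1, Cdkn1a, Rrm2 and Tk1, and those with lower RNA are E2f1, E2f8, Mcm3, Mcm4, Ccna2, Aurka, Mki67 and Top2a.

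Of the mitotic cyclins, Ccna2 alone passed the FPKM filter. Ccna2 (mm10 chr3:36564865-36571996), the cyclin of S phase and G2, had 1.804, 1.44 and 1.48 FPKM in Con mice and 1.30, 1.25 and 1.21 FPKM in CR mice at day 25. By day 30 it had 1.64, 1.69 and 1.88 FPKM in Con mice and 1.44, 1.60 and 1.19 FPKM in CR mice. The groups lay apart within each day. CR mice differed from Con mice by a log2 fold change of FPKM + 1 of −0.19 ± 0.07 (SE) over both days (adjusted p = 0.0412), and neither day passed alone, with −0.19 at each. The call was lost with quantile normalization (−0.12). Ccnb2 (0.0390 to 0.644 FPKM) and Cdk1 (0.125 to 0.400 FPKM), the cyclin B2 and the kinase of mitosis, had at most 23 reads in any library and did not pass.

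Aurka (mm10 chr2:172356190-172370570), the Aurora kinase of centrosomes and spindle poles, was the 1 gene of its group of 12 past the FPKM filter, and it fell. It had 1.15, 1.33 and 1.23 FPKM in Con mice and 1.18, 0.842 and 0.791 FPKM in CR mice at day 25. At day 30 it had 1.40, 1.37 and 1.13 FPKM in Con mice and 0.591, 0.954 and 0.545 FPKM in CR mice. CR7 lay above Con7 at day 25, and the groups lay apart at day 30. Of the CR mice, CR7 alone reached the 1 FPKM of the filter. On reads, with 24 to 55 in every library, the adjusted p of voom was 0.0175 at day 30 and 0.0110 over both days. The log2 fold change of FPKM + 1 was −0.21 ± 0.12 (SE) at day 25 (adjusted p = 0.295), −0.44 ± 0.12 at day 30 (adjusted p = 0.0248) and −0.33 ± 0.09 over both days (adjusted p = 0.0122), the last 2 holding without each mouse. Birc5 (0.485 to 1.25 FPKM), which encodes survivin, and Kif11 (0.0740 to 0.305 FPKM), a spindle motor, did not pass on reads.

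Top2a, the topoisomerase of chromosome segregation, had the promoter with the most CHR matches of the 5 printed, and its RNA was lower under CR at both days. Top2a (mm10 chr11:98992947-99024189) had 10, 15 and 8 reads in Con mice and 3, 5 and 5 in CR mice at day 25. The values at day 30 were 9, 16 and 13 reads in Con mice and 8, 4 and 3 in CR mice. Its FPKM was 0.0850 to 0.158 in Con mice and 0.0250 to 0.0660 in CR mice, with no overlap. With voom on reads, the log2 fold change was −1.35 ± 0.46 (SE) at day 25 (adjusted p = 0.0841), −1.37 ± 0.44 at day 30 (adjusted p = 0.0472) and −1.36 ± 0.31 over both days (adjusted p = 0.00409), a level 0.390-fold of Con. The call at day 25 was lost without Con7, Con8, CR7 or CR9 (−1.43 to −1.03) and that at day 30 without Con11 or CR12 (−1.18 and −1.03), and that over both days held without each mouse. On log2(FPKM + 0.1), neither day passed (−0.58 and −0.57). Top2a met the read filter only through Con7, Con8, Con11 and Con12, and every CR mouse had fewer than 10 reads. The tests above thus start from a gene let in by its high Con values. With voom on all genes with at least 1 read in at least 1 library, Top2a did not pass at day 25 (−1.33, adjusted p = 0.108). It passed at day 30 (−1.37, adjusted p = 0.0594) and over both days (−1.35, adjusted p = 0.00510).

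Mki67, which encodes the antigen Ki-67 of cycling cells, was lower under CR at day 30, while its groups overlapped at day 25. Mki67 (mm10 chr7:135689788-135716379) had 12, 12 and 7 reads in Con mice and 15, 12 and 6 in CR mice at day 25. By day 30 it had 23, 20 and 22 reads in Con mice and 6, 10 and 3 in CR mice. The log2 fold change on reads was −0.07 ± 0.45 (SE) at day 25 (adjusted p = 0.943), −1.90 ± 0.45 at day 30 (adjusted p = 0.0114) and −1.02 ± 0.39 over both days (adjusted p = 0.0592). The call at day 30 held without each mouse, and that over both days was lost without CR9, Con10, Con11, Con12, CR10 or CR12 (−0.94 to −0.74). The change of the CR effect between days, −1.83 ± 0.64 (SE), did not pass (adjusted p above 0.99), though it was the 1 of 31 members with an unadjusted p under 0.05.

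**Figure D4:**
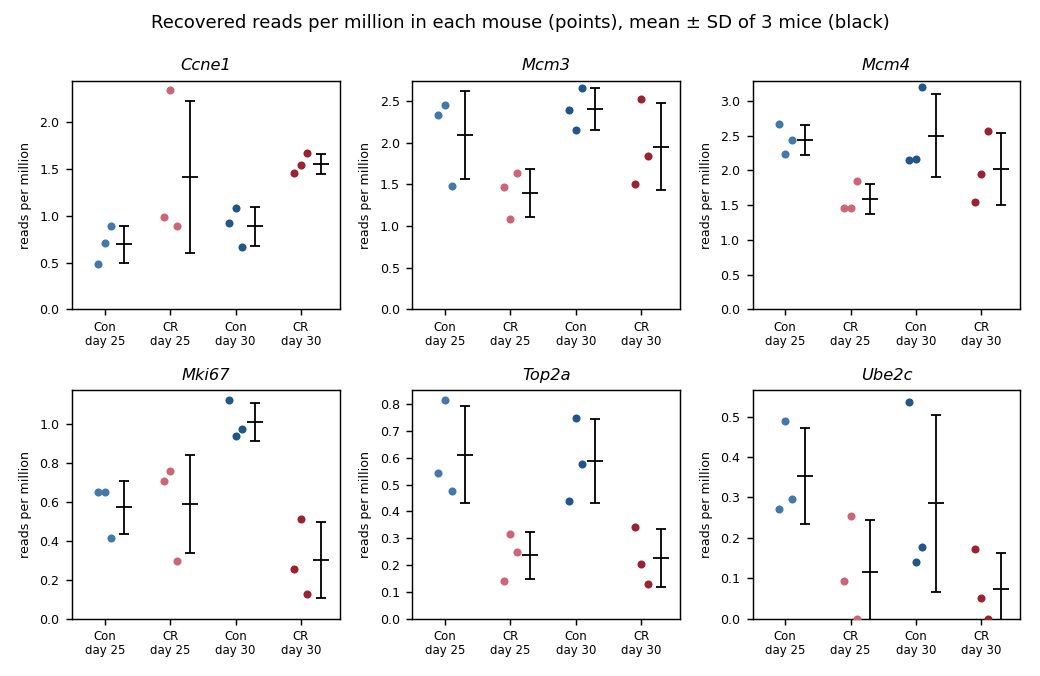
Recovered reads in each mouse, scaled to library depth (colored points), with the mean ± SD of 3 mice in black, for 5 members that passed a test on reads only and for Ube2c, which lay below the read filter. Top2a is lower in every CR mouse than in every Con mouse, and Mki67 is lower at day 30 while the groups overlap at day 25.

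The 12 members below both filters had between 4 and 75 reads each over all 12 libraries. They are the mitotic genes Ccnb1, Bub1, Bub1b, Aurkb, Plk1, Cdc20, Melk, Ttk, Cenpe and Ube2c, with Foxm1 and Cdkn3. Together they had 217 reads in the Con mice, from 117997450 reads, and 141 in the CR mice, from 123176650. The sums of single mice overlapped, with 24 to 57 reads in Con mice and 15 to 35 in CR mice. Con10 alone gave 57 of the 217 Con reads. Scaled to library depth, the sum of CR11 lay above those of Con7, Con9, Con11 and Con12. Of the 12, 8 had more reads in Con mice and 3 had more in CR mice, and Melk had 5 in each. This count by direction has no share of all genes below the read filter beside it. The spindle checkpoint gene Bub1b had 48 and 27 reads, the centromere motor Cenpe 39 and 21, and Ube2c, the ubiquitin carrier of the anaphase-promoting complex, 37 and 11, while Aurkb, the Aurora kinase of the centromere, had 5 and 15 and Plk1, the Polo kinase, 15 and 20. When all genes with at least 1 read in at least 1 library were tested (18362 genes), Ube2c (log2 fold change −1.97, adjusted p = 0.0255), Bub1b (−0.95, adjusted p = 0.0591) and Cenpe (−1.30, adjusted p = 0.0809) passed over both days, and Cdkn3 (−2.43, adjusted p = 0.00851) and Cdc20 (−2.25, adjusted p = 0.0954) at day 30. That is 3 of the 12 over both days beside 26.4% of the 18362 genes, 2 at day 30 beside 15.6%, and 0 at day 25 with voom (3 at an unadjusted p under 0.05) beside 8.08%. With so few reads these values are imprecise, and Cdkn3 rests on 7 reads against 0 at day 30.

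Mitotic RNA can come from any cycling cell of the liver. Markers of lymphocytes, none of whose 11 genes reached 1 FPKM in 3 libraries, summed to 2.39 to 4.17 FPKM in Con mice and 1.27 to 2.57 in CR mice. Markers of neutrophils and their precursors, again with none of 7 above that limit and Camp and Ly6g at 0 in every library, summed to 0.384 to 1.44 and 0 to 0.764 FPKM. The 9 Kupffer cell and macrophage markers summed to 45.9 to 86.7 FPKM in Con mice and 30.2 to 60.1 in CR mice. The 7 stellate cell markers summed to 46.6 to 59.3 and 61.4 to 80.7 FPKM, and the hepatocyte markers to 39872 to 55283 and 56942 to 68386 FPKM. Most of the stellate sum and most of the hepatocyte sum was 1 gene each. Dcn made up 78.7% to 86.3% of the stellate sum and Alb 61.2% to 75.6% of the hepatocyte sum. Every CR mouse was above every Con mouse in the stellate markers Dcn and Reln and the hepatocyte markers Alb and Tat. The other 5 and 6 overlapped. Lower in every CR mouse were Cd4 and Cd79b of the 11 lymphocyte markers and Alas2 of the 7 erythroid markers. With the days pooled, all macrophage, neutrophil, endothelial and cholangiocyte markers overlapped. Within a day, some sums lay apart. At day 25 the macrophage sum was 51.1 to 86.7 FPKM in Con mice and 30.2 to 43.8 in CR mice, and at day 30 it overlapped. The lymphocyte sum lay lower in CR mice at both days, and the neutrophil sum at day 25. The endothelial sum lay higher in CR mice at day 30, at 40.7 to 45.7 FPKM against 31.8 to 34.7. Erythroid markers summed to 83.8 to 297 FPKM in Con mice and 94.5 to 246 in CR mice. Endothelial markers summed to 31.8 to 48.6 and 40.5 to 49.4, and cholangiocyte markers to 10.2 to 17.8 and 7.57 to 16.5. The part of these cells in the results for Top2a, Mki67 and the other members was not tested.

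Of 170 other cell cycle genes listed by role, 169 were in the table and 89 passed the FPKM filter. Over both days 7 rose and 31 fell, or 42.7%, close to the 40.6% of all genes, with a median log2 fold change of −0.13. None passed with a log2 fold change of 1 or more on FPKM. On reads 4, 5 and 5 of 128 passed with that fold at day 25, at day 30 and over both days, beside 3.35%, 5.1% and 4.22% of all genes. These were 10 genes, with Wee1, Cdkn1c, Phlda3 and Cenpm higher and Nek2, Eda2r, E2f2, Prc1, Gins2 and Cit lower. With voom, the CDK inhibitor Cdkn1c rose at day 30 (1.03, adjusted p = 0.00677). Of the p53 pathway list, Phlda3 rose at day 30 (1.25, adjusted p = 0.0963), and Eda2r fell over both days (−1.58, adjusted p = 0.0116). On FPKM, 14.5% of all genes were higher and 26.1% lower over both days. Origin licensing and replication fork genes had 0 up and 10 down of 27 tested, genes of the Rb and E2F family 0 and 6 of 11, subunits and partners of the anaphase-promoting complex 0 and 5 of 11, and condensin, cohesin and chromatin genes 0 and 2 of 8. Other kinases, cyclins and inhibitors had 3 up and 5 down of 12, p53 pathway and damage checkpoint genes 3 and 2 of 14, and spindle, kinetochore and cytokinesis genes 1 and 1 of 6.

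On FPKM, the 3 largest rises over both days among the other cell cycle genes were Wee1, Gadd45b and Trp53inp1. Wee1 (0.91, adjusted p = 0.000139) encodes the kinase that inhibits CDK1 and is under circadian control. Gadd45b (0.67, adjusted p = 0.0698) is a stress gene, and Trp53inp1 (0.49, adjusted p = 0.0848) is a p53 target. Wee1 had 1.90, 2.09 and 2.56 FPKM in Con mice and 6.55, 5.31 and 4.34 FPKM in CR mice at day 25, and 3.03, 4.46 and 3.05 and 5.30, 8.05 and 7.62 FPKM at day 30. CR mice lay above Con mice of the same day for Wee1. Gadd45b overlapped at day 25, with Con8 at 4.53 and CR8 at 4.44 FPKM, and CR9 was highest at 13.1 FPKM. Trp53inp1 overlapped at day 30, with Con12 at 19.1 and CR10 at 10.8 FPKM. Neither of these 2 passed at day 25 (adjusted p = 0.231 and 0.190, limma) or at day 30 (0.339 and 0.468). The 3 largest falls on FPKM were Nek2 (−0.68, adjusted p = 0.000125), a centrosome kinase, Cdk6 (−0.65, adjusted p = 0.000118), the second kinase of the D-type cyclins, and Rfc3 (−0.46, adjusted p = 0.00507), a clamp loader subunit. Nek2 had 1.09, 1.35 and 0.968 FPKM in Con mice and 0.222, 0.379 and 0.499 FPKM in CR mice at day 25, and 1.13, 1.15 and 0.779 and 0.135, 0.371 and 0.202 FPKM at day 30. Cdk6 had 4.12, 4.17 and 3.96 FPKM in Con mice and 2.66, 2.31 and 1.72 FPKM in CR mice at day 25, and 4.23, 4.23 and 4.62 and 1.92, 2.80 and 2.68 FPKM at day 30. Both lay lower in every CR mouse than in every Con mouse. Nek2 passed the FPKM filter only through Con7, Con8, Con10 and Con11, so its test depends on its high Con values.

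**Figure D5:**
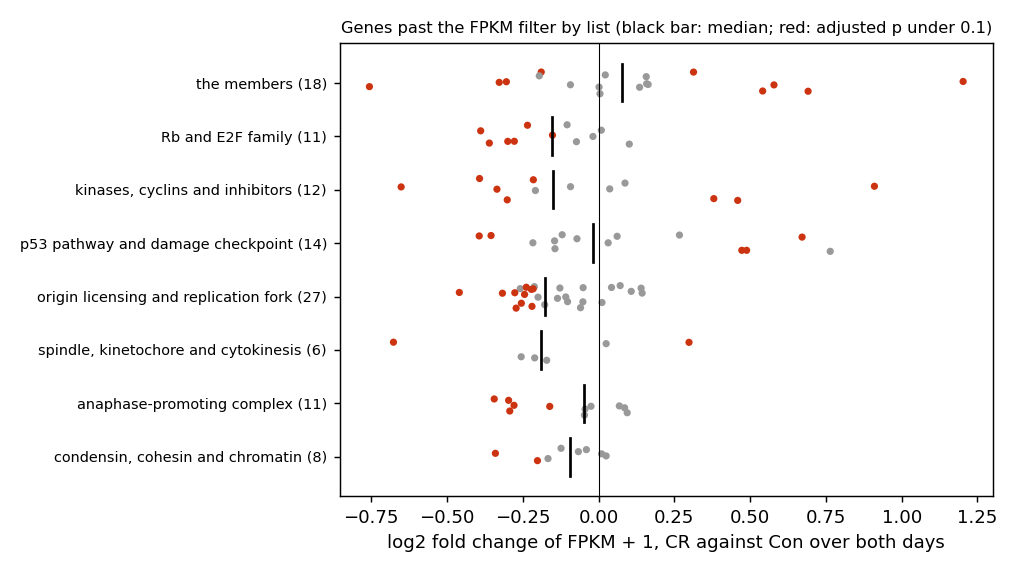
Log2 fold change of FPKM + 1 for CR against Con over both days, 1 point per gene past the FPKM filter, for the 18 members and for 7 other lists of cell cycle genes, with the number tested beside each name, the median as a black bar and genes with an adjusted p under 0.1 in red. The replication fork list lies mostly left of 0, while the members lie on both sides, from E2f8 at −0.76 to Cdkn1a at 1.20.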

How the data were processed

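Liver RNA from 12 mice was sequenced as 100 bp paired-end reads. The authors deposited FPKM, which the table header says were made with HOMER from exon reads with 1 RefSeq transcript per gene, after mapping with BWA to mm10 (CASAVA 1.8.2, per the processing notes). How read pairs and strand were counted is not given in the sources used here. The steps between low FPKM values gave whole reads (100% of the low values were whole within 0.1 reads), and depth limits the precision of genes with few reads.

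The members and lists were chosen with earlier results of these data known. In R 4.3.3, limma 3.58.1 was fitted with a trend to log2(FPKM + 1) of 10593 genes (FPKM 1 or more in 3 or more libraries) in 4 groups, and CR over both days with day as covariate. Voom was fitted to recovered reads of 12972 genes (10 or more reads in 3 or more libraries). P-values are 2-sided and adjusted over all genes. The fold changes of FPKM + 1 understate those of low genes. The models were also run on simulated data in which every gene had the same extra spread between libraries. Changes were put only into genes past the FPKM filter, so that run does not cover the lower members.

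A test is given for members with an adjusted p under 0.1 in a CR comparison, and ranges for the rest. Of other cell cycle genes, those past both thresholds on FPKM or on reads and the 3 largest changes per direction on FPKM were named. At day 25, the deviations from the group mean of same-numbered mice, numbered by the labels, had correlations of 0.106 to 0.368. Those of different numbers were −0.287 to 0.0134. Deviations within a group of 3 sum to 0, so these correlations depend on each other and cannot show that mice were paired. The replicate block is printed as an alternative where it changed a call. Columns of Con mice at day 30 could be tied to their group only. Tables were made in Python 3.11.15 (numpy 2.4.6, pandas 2.3.3) and figures with matplotlib 3.10.9. Alternatives covered pseudocount, filters, scaling, moderation, thresholds, the block and leaving out each mouse.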

Additional observations from a re-analysis of the deposited data

How the results depend on the processing

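The count of members past both thresholds, which was 1, 0 and 1 at day 25, at day 30 and over both days, became 2, 5 and 5 with voom on reads. It became 3 at day 30 and 2 over both days with a pseudocount of 0.1, and 2 and 2 with TPM. Leaving out 1 mouse gave 0 to 1 at day 30 (1 without Con12) and 0 to 1 over both days (0 without CR9). The count for day 30 against day 25 in CR mice, 1, was 0 without a filter and at an adjusted p under 0.05, and 0 to 1 when 1 mouse was left out (0 without CR7, CR9, CR10 or CR11). Without a limit on the fold, the 4 members of day 25 became 2 without a filter, 2 with TPM and 1 at an adjusted p under 0.05, and 1 to 4 when 1 mouse was left out, 1 being without Con7 or CR8. The 6 of day 30 became 3 to 6 when 1 mouse was left out (3 without Con11), and the 9 over both days became 15 without a filter, 15 with a filter of FPKM 0.1 and 14 with voom on reads. On reads, the 5 of day 25 became 2 with at least 1 read in 1 library, 3 with log2(FPKM + 0.1), and 1 to 6 when 1 mouse was left out, 1 being without Con7. With the replicate block at day 25, 5 members passed at day 25, 8 at day 30 and 10 over both days on FPKM. Over both scales, 8 calls were gained and 0 lost. For most of these settings no share of all genes stands beside the count. Such counts do not compare the members with all genes. No paired analysis was possible at day 30 because the columns of the Con mice carry no number of the labels. Of 922 values of single members under alternatives, 809 kept direction and side of the threshold, 90 lost the threshold, 19 gained it and 4 changed sign. All 4 are Mki67 at day 25, −0.07, which was 0.0099 with the replicate block and −0.28 to 0.35 when 1 mouse was left out, above 0 without Con7, Con8 or CR9. The cause of these changes was not tested. Members with under 10 reads per library are limited by depth.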
